A study of Mus musculus with 6 samples.

Results

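The type I interferon-stimulated genes described here are 41 genes whose transcription is switched on when a cell responds to type I interferon. They were chosen as rows of the count table whose gene symbol matched a fixed list of 41 symbols, and all 41 symbols had a row among the 22601 genes listed. The list was drawn up with values of these libraries known, so the levels and differences of these genes are given as a description. The libraries were RNAseq of osteoclasts, the multinucleated cells that resorb bone, grown from bone marrow macrophages for 5 days with RANKL at 10 ng/ml and M-CSF at 2 ng/ml. One group of 3 libraries came from wild-type (WT) mice and the other 3 from Slc37a2 KO mice, which lack a sugar transporter of the osteoclast lysosome. The KO mice carried the gene-trap allele Slc37a2 tm2a(KOMP)wtsi on both chromosomes in all cells of the body, from 1 line of targeted embryonic stem cells on a C57BL/6N background, and the WT mice were littermates. Each column heading holds an identifier made of K or L with a number, then the letter F and 11 weeks, and the labels call the libraries biological replicates. The WT libraries are K090, L080 and L082 and the KO libraries are K089, L078 and L081. The comparison asked which transcripts differ in osteoclasts without Slc37a2. What the letters K and L stand for is not given. The labels describe cultured osteoclasts, and the study's results likewise report RNAseq of osteoclasts. Its methods instead describe RNA of whole femurs and tibias for the RNAseq.

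Type I interferons bind a receptor made of Ifnar1 and Ifnar2, and the kinases Jak1 and Tyk2 then phosphorylate Stat2. With Irf9 it enters a transcription factor complex that binds the interferon-stimulated response element (ISRE) in front of its target genes. In the osteoclast lineage, RANKL itself induces a little interferon beta, which restrains osteoclast formation. The genes it switches on make proteins that sense foreign nucleic acid, block viral entry, translation and release, and tune the response itself.

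Total counts ran from 27552183 to 42522292 per library. Slc37a2 stood at 1857, 2151 and 2440 CPM (read counts relative to the library total, scaled by the trimmed mean of M values, TMM) in WT and at 45.3, 32.1 and 36.9 CPM in KO, so the genotype labels match this gene in all 6 libraries. Osteoclast markers held 46266 to 92220 CPM in sum, with all 15 of 15 in the table. The first principal component of all tested genes took 57.7% of the variance and put WT K090, WT L080 and KO L078 at -24.7, -22.4 and -34.3, against 9.78, 40.1 and 31.6 for WT L082, KO K089 and KO L081. The largest axis of variation therefore crossed the genotypes. No library was a copy of another.

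Promoters of these genes were searched for the ISRE. RefSeq promoters of GRCm38.p6, from 250 bases before to 50 bases after each start, were at hand for 29 of the 41 genes. The core of this element is GAAA repeated after 2 further bases of any kind, and it was searched on both strands. It was present in 12 of these 29 genes (41.4%), counting any promoter of a gene. The share was 3.99% of all 27025 genes and 3.44% of all 32851 promoters. Among the genes tested here that have a promoter entry, the share was 3.81%. Oas1a, Trim30a, Ifitm3, Bst2 and Eif2ak2 hold the core but are not shown. The following windows of 30 bases are from the other genes that hold it, and the capitals mark the core. Each is written 5′ to 3′ on the strand of its gene, so a core that lies in the opposite orientation reads as its reverse complement.
Isg15, chr4:156200877-156200906, minus strand, core starting 78 bases before the start site: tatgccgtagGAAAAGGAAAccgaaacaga
Ifit1, chr19:34640775-34640804, plus strand, opposite orientation: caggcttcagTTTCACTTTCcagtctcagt
Ifit3, chr19:34583363-34583392, plus strand, opposite orientation: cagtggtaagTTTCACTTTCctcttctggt
Ifit3b, chr19:34607759-34607788, plus strand, opposite orientation: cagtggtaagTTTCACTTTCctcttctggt
Oas3, chr5:120777715-120777744, minus strand: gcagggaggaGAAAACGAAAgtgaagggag
Rsad2, chr12:26456553-26456582, minus strand, opposite orientation: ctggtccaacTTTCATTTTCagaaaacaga
Stat2, chr10:128270266-128270295, plus strand, opposite orientation: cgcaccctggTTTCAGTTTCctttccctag
The windows of Ifit3 and Ifit3b are letter for letter the same. Isg15 holds 3 overlapping cores, of which the first is shown. A second element, the GAS core TTCNNNGAA, was present in 6 of the 29 genes (20.7%). It was present in 9.55% of all genes and in 8.30% of all promoters. Among the genes tested here that have a promoter entry, its share was 8.37%. Range over the libraries overlapped between promoters with and without the ISRE core: it was 0.75 to 4.03 log2 units with a median of 2.90 in the 12 with it, and 0.36 to 4.25 with a median of 2.25 in the 17 without it. Such a match describes letters in a window and does not show a bound site.

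Several of the genes lie side by side in the genome. On GRCm38, Ifit2, Ifit3, Ifit3b and Ifit1 fill chr19:34550694-34650009. Oas2, Oas3 and Oas1a fill chr5:120730333-120907521, and Oasl2 and Oasl1 lie at chr5:114896936-114937915. Rsad2 and Cmpk2 share chr12:26442746-26479837, Parp14, Dtx3l and Parp9 share chr16:35832874-35972605, and Mx1 and Mx2 share chr16:97447035-97560900. Some also share sequence with another annotated gene, and how reads were assigned between such genes is not given in the sources used here. Of the 50-base words in the Ifit3 transcript, 51.2% also occur in Ifit3b, and 57.6% of those of Oas1a also occur in Oas1g. For Ifi204 the share was 30.2%, for Herc6 23.8%, for Phf11d 13.9%, for Rtp4 13.6%, for Sp100 10.2% and for Ifitm3 10.0%. The counts of these genes and of Ifit3b are therefore uncertain between the genes that share sequence. The main partners of Herc6, Rtp4 and Sp100 are annotated as Gm45193, Gm45338 and Gm7582. Whether these partners are copies was not examined.

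The range of levels within each genotype exceeded the size of the log2 fold change of KO over WT in all 41 genes. The same held for most genes tested, 88.9% within WT and 92.8% within KO. For each gene the log2 CPM of a library was compared with that gene's mean over the 6 libraries, with a prior count of 2, and the median over the genes was taken. This median was 1.33 in WT K090, 0.54 in WT L080 and -0.72 in WT L082, and it was -1.28 in KO K089, 0.81 in KO L078 and -0.47 in KO L081. Each genotype thus had libraries on both sides of the mean. The medians spanned 2.61 log2 units over the libraries.

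**Figure D1:**
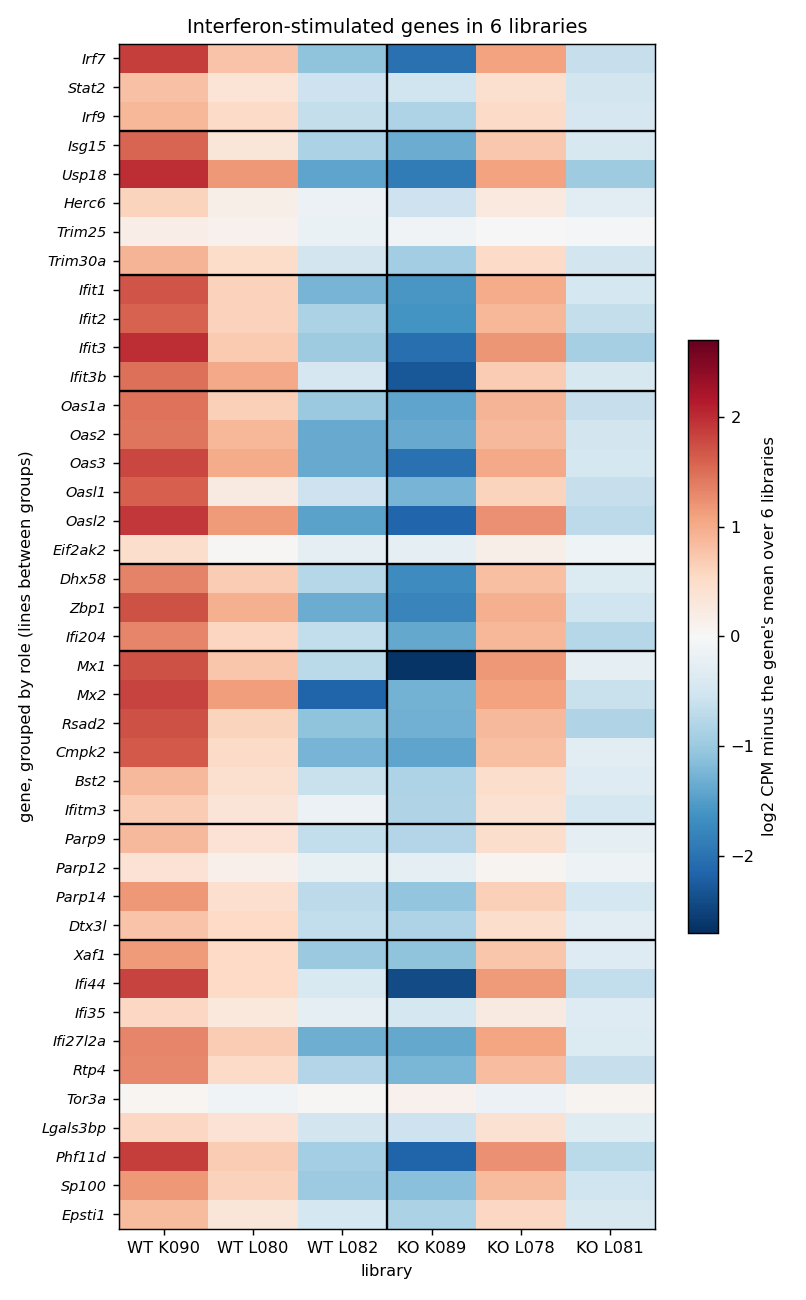
Heat map of the 41 interferon-stimulated genes (rows, grouped by role) in the 6 libraries (columns, WT left and KO right). Colour gives log2 CPM minus the gene's mean over the libraries. WT K090, WT L080 and KO L078 are red in nearly every row and WT L082, KO K089 and KO L081 are blue, while Trim25, Parp12 and Tor3a stay pale.

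The order of the libraries was shared across the genes. WT K090 was the highest and KO K089 the lowest library in 36 of the 41 genes, against 11.0% of all genes tested. The 3 libraries WT K090, WT L080 and KO L078 were the 3 highest in 40 of 41, against 22.6% of all genes. In 25 of 41 the full order was WT K090, KO L078, WT L080, KO L081, WT L082 and KO K089, an order held by 2.17% of all genes. Stat2, Trim25, Oas2 and Mx2 had their lowest level in WT L082 instead, and Tor3a had its highest level in KO K089 and its lowest in KO L078.

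The distance from the highest to the lowest library varied among the genes. It ran from 0.28 log2 units in Tor3a (1.21-fold) to 4.38 in Mx1, with a median of 2.71 (6.55-fold), against a median of 0.42 over all genes tested. It passed 2 log2 units in 26 of 41, against 4.06% of all genes, and stayed below 1 in 4. Among 11858 genes with a mean of at least 1 CPM, of which 2.77% passed 2 log2 units, the interferon-stimulated genes made up 8 of the 25 with the largest SD over the libraries, 17 of the first 100 and 23 of the first 200. Mx1, Mx2 and Ifit3b had 2, 1 and 2 counts in their lowest library, so their distances depend on the prior count. Without these 3 genes, the widest was Ifi44 with 4.25 log2 units, which had 4 counts in KO K089, so that its distance too depends on the prior count.

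In terms of genotype, none of the 41 was called by edgeR's quasi-likelihood test at an adjusted p below 0.05, where 0.00742% of the 13483 genes tested were called, and none had an unadjusted p below 0.05, where the share of all genes was 0.712%. DESeq2's Wald test called 0 of 41 and 0.0148% of all genes, as did the likelihood ratio test of edgeR. All 41 passed the filter on low counts, and 35 had at least 10 counts in every library. The log2 fold change of KO over WT was negative in 40 of 41, against 56.2% of all genes. Its median was -0.71, against -0.02 over all genes, and it ran from -1.17 in Usp18 to 0.01 in Tor3a. WT and KO values overlapped in every one of the 41 genes. The groups did not overlap in only 4.31% of all genes, so this overlap does not set the 41 apart. The range within WT exceeded the size of the fold change in 41 of 41, against 88.9% of all genes, and so did the range within KO in 41 of 41, against 92.8%. All 41 intervals at 95% confidence held 0, and 32 of them reached beyond a log2 fold change of 1.5 in size, so a change of that size lay within the interval in most of the genes. The median depended on single libraries: it was -0.09 without WT K090, -0.29 without KO K089, -0.45 without KO L081, -1.06 without WT L082 and -1.52 without KO L078, with 0 genes called each time.

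**Figure D2:**
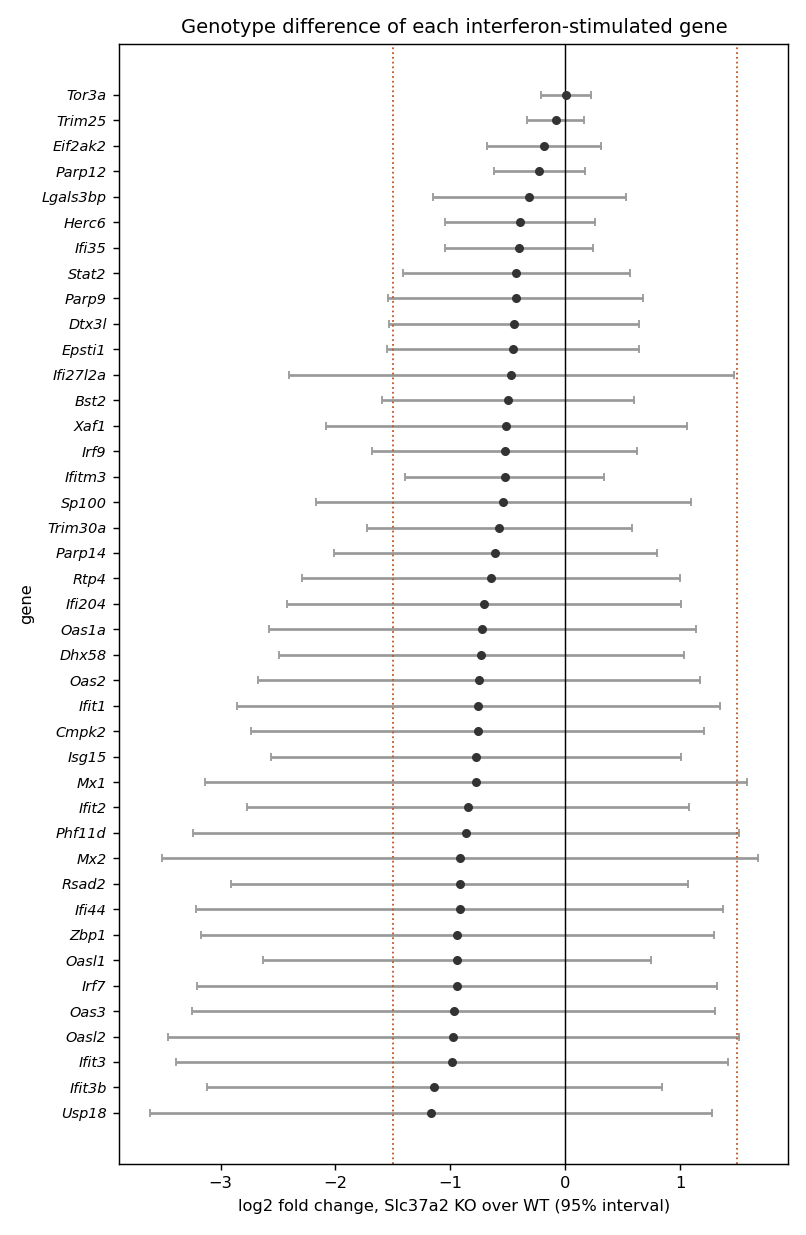
Log2 fold change of KO over WT (points) with its 95% interval (bars) for each of the 41 interferon-stimulated genes, ordered by the estimate. Dotted lines mark 1.5 and -1.5. Estimates lie between -1.17 and 0.01 and every interval crosses 0.

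The heading letter divided the genotype difference. In the K pair, KO K089 lay below WT K090 in 40 of 41 genes, against 52.6% of all genes, with a median difference of -2.71 log2 units. In the 4 libraries of letter L, the mean of KO lay above that of WT in 36 of 41, against 45.1% of all genes, with a median of 0.24. The L differences ran from -0.16 in Ifit3b to 0.76 in Mx2, and besides Ifit3b only Herc6, Ifi35, Ifitm3 and Tor3a were not higher in KO. Within letter L, WT L080 and KO L078 were the high libraries of their genotypes and WT L082 and KO L081 the low ones. A genotype by letter term, fitted over the whole table after these values had been seen, was called in 0 of 41 and in 0.0% of all genes. It had an unadjusted p below 0.05 in 12 of 41 and in 2.18% of all genes. The residual spread of this fit came only from the 4 libraries of letter L, and the fit was prompted by the division seen in these same genes, so these counts describe that division again and do not test it. Letter K holds 1 library of each genotype, so the letter and the single library cannot be told apart.

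**Figure D3:**
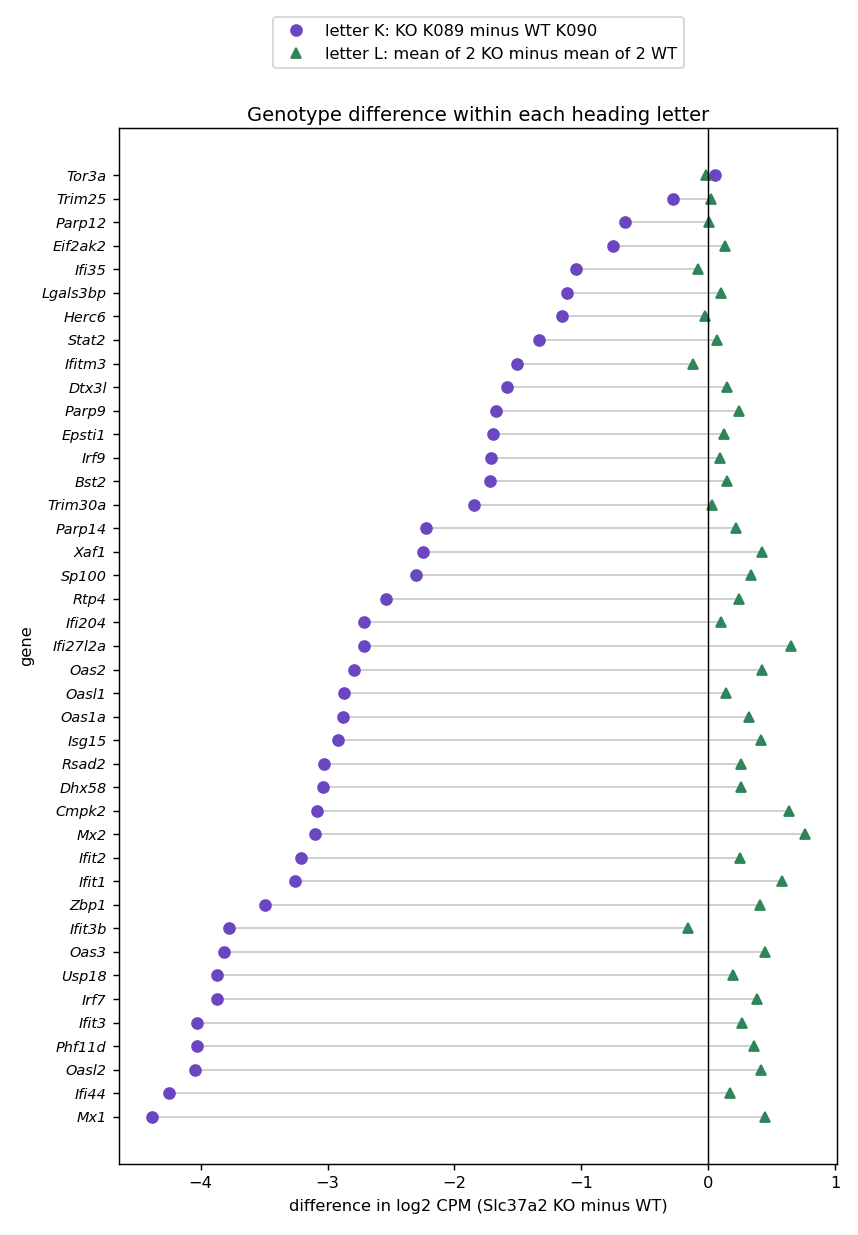
Difference in log2 CPM between KO and WT within the K pair (circles, 1 library each) and within the L libraries (triangles, difference of means, 2 libraries each) for each of the 41 genes. Circles reach from -4.38 to 0.05 and triangles from -0.16 to 0.76.

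Signalling and transcription factors start and amplify the response. In what follows, values in WT are given in the order K090, L080 and L082 and values in KO in the order K089, L078 and L081. Irf7, the factor that amplifies interferon gene transcription, measured 25.04, 11.8 and 3.21 CPM in WT and 1.65, 14.5 and 4.45 CPM in KO. Its means were 13.4 ± 11.0 CPM in WT and 6.88 ± 6.78 CPM in KO (SD, n = 3), with a log2 fold change of -0.94 and a standard error of 0.94. KO L078 stood above 2 of the WT libraries. Irf9, the DNA-binding part of the complex with Stat2, measured 31.4, 24.2 and 10.9 CPM in WT and 9.54, 24.2 and 12.4 CPM in KO. Stat2, its partner, measured 39.3, 29.3 and 15.3 CPM in WT and 15.5, 30.8 and 16.0 CPM in KO. Both factors fell into a high trio and a low trio of libraries, but over a narrower range than Irf7, with 1.71 and 1.36 log2 units against 3.87.

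The ISG15 system attaches a small ubiquitin-like protein to other proteins. Isg15, the modifier, measured 11.8, 4.91 and 2.12 CPM in WT and 1.505, 6.55 and 2.86 CPM in KO. Usp18, which removes ISG15 and damps receptor signalling, measured 10.5, 5.90 and 0.931 CPM in WT and 0.661, 5.59 and 1.31 CPM in KO. Usp18 had the most negative log2 fold change of the 41, at -1.17 with a standard error of 1.01, and KO L078 lay close to WT L080. Herc6, the main ISG15 ligase of mice, ranged over 1.15 log2 units and Trim30a, a regulator of inflammatory signalling, over 1.85. Trim25, a ubiquitin ligase of RNA sensing, was nearly level at 0.36 log2 units between its highest and lowest library.

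The IFIT proteins bind foreign RNA and hold back its translation. Ifit3 measured 9.29, 3.82 and 1.16 CPM in WT and 0.514, 5.37 and 1.202 CPM in KO, and its neighbour and near copy Ifit3b measured 1.76, 1.27 and 0.417 CPM in WT and 0.0734, 0.999 and 0.424 CPM in KO. In KO K089 Ifit3b had 2 counts, and its ratio of WT K090 to KO K089 was 24.0 with a 95% exact counting interval of 6.42 to 202. Such intervals cover counting error only. Ifit1 and Ifit2 ranged over 3.25 and 3.21 log2 units, and the IFIT genes together had the widest range of library medians among the role groups, 3.47 log2 units. All 4 had WT K090 highest and KO K089 lowest.

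The OAS enzymes make short oligoadenylates that activate an RNase, and PKR (Eif2ak2) halts translation on double-stranded RNA. Oasl2, an OAS-like protein, measured 37.8, 22.5 and 3.66 CPM in WT and 2.24, 23.9 and 6.15 CPM in KO. Its SD over the libraries was the largest of the 41 genes, 1.65 log2 units. Oas3 measured 55.1, 31.4 and 6.07 CPM in WT and 3.85, 31.8 and 11.2 CPM in KO. Oas1a, Oas2 and Oasl1, a repressor of Irf7 translation, ranged over 2.88, 2.79 and 2.87 log2 units. Eif2ak2 stood apart with a range of 0.75, at 43.3 to 72.1 CPM in WT and 42.9 to 57.6 CPM in KO.

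Of the nucleic acid sensors, Zbp1, which recognises Z-form nucleic acid and can start cell death, measured 3.92, 2.30 and 0.417 CPM in WT and 0.294, 2.31 and 0.778 CPM in KO. Dhx58, the RIG-I-like helicase LGP2, measured 16.7, 10.7 and 3.85 CPM in WT and 1.98, 11.7 and 5.06 CPM in KO. Ifi204, a DNA-binding protein of the PYHIN family, ranged over 2.71 log2 units. The 3 sensors shared the order with WT K090 at the top and KO K089 at the bottom, and their log2 fold changes of -0.94, -0.73 and -0.71 had standard errors of 0.92, 0.73 and 0.71.

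Among direct antiviral effectors, the dynamin-like GTPase Mx1 measured 2.72, 1.34 and 0.449 CPM in WT and 0.0734, 1.84 and 0.636 CPM in KO. With 111 counts in WT K090 and 2 in KO K089, the ratio of these libraries was 37.0 with a 95% exact counting interval of 10.0 to 309.7. Mx2 measured 1.40, 0.848 and 0.0321 CPM in WT and 0.110, 0.821 and 0.212 CPM in KO, and its lowest library was WT L082 with 1 count. Both Mx genes were scarce in these cells, yet they followed the same division into 3 high and 3 low libraries. Rsad2 (viperin) and its neighbour Cmpk2, a nucleotide kinase, ranged over 3.03 and 3.08 log2 units. Bst2, which tethers budding virus to the cell, and Ifitm3, which blocks fusion of virus with the cell membrane, ranged over 1.72 and 1.51.

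The PARP proteins attach ADP-ribose to other proteins, and Dtx3l is a ubiquitin ligase that works in a complex with Parp9. Parp14 measured 115.6, 70.1 and 31.4 CPM in WT and 24.6, 80.6 and 36.9 CPM in KO. Parp9 measured 42.0, 29.8 and 14.3 CPM in WT and 13.1, 31.8 and 18.9 CPM in KO. Dtx3l and Parp12 ranged over 1.58 and 0.65 log2 units. The range of library medians in this group, 1.63 log2 units, was the narrowest of the role groups.

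The remaining 10 genes have varied roles. Phf11d, a PHD finger protein, measured 6.32, 2.76 and 0.867 CPM in WT and 0.330, 4.04 and 0.990 CPM in KO, and Ifi44 measured 3.87, 1.55 and 0.770 CPM in WT and 0.147, 2.40 and 0.636 CPM in KO. The high and low libraries were again the same. The nuclear body protein Sp100, the apoptosis regulator Xaf1, the receptor chaperone Rtp4 and Ifi27l2a ranged over 2.31, 2.25, 2.54 and 2.71 log2 units, and Epsti1, Lgals3bp and Ifi35 over 1.70, 1.11 and 1.04. Tor3a, a torsin ATPase of the endoplasmic reticulum, was chosen for mention after its values were seen, as the one gene that did not vary with the rest. It measured 101.1, 90.6 and 99.2 CPM in WT and 104.8, 86.4 and 101.4 CPM in KO.

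**Figure D4:**
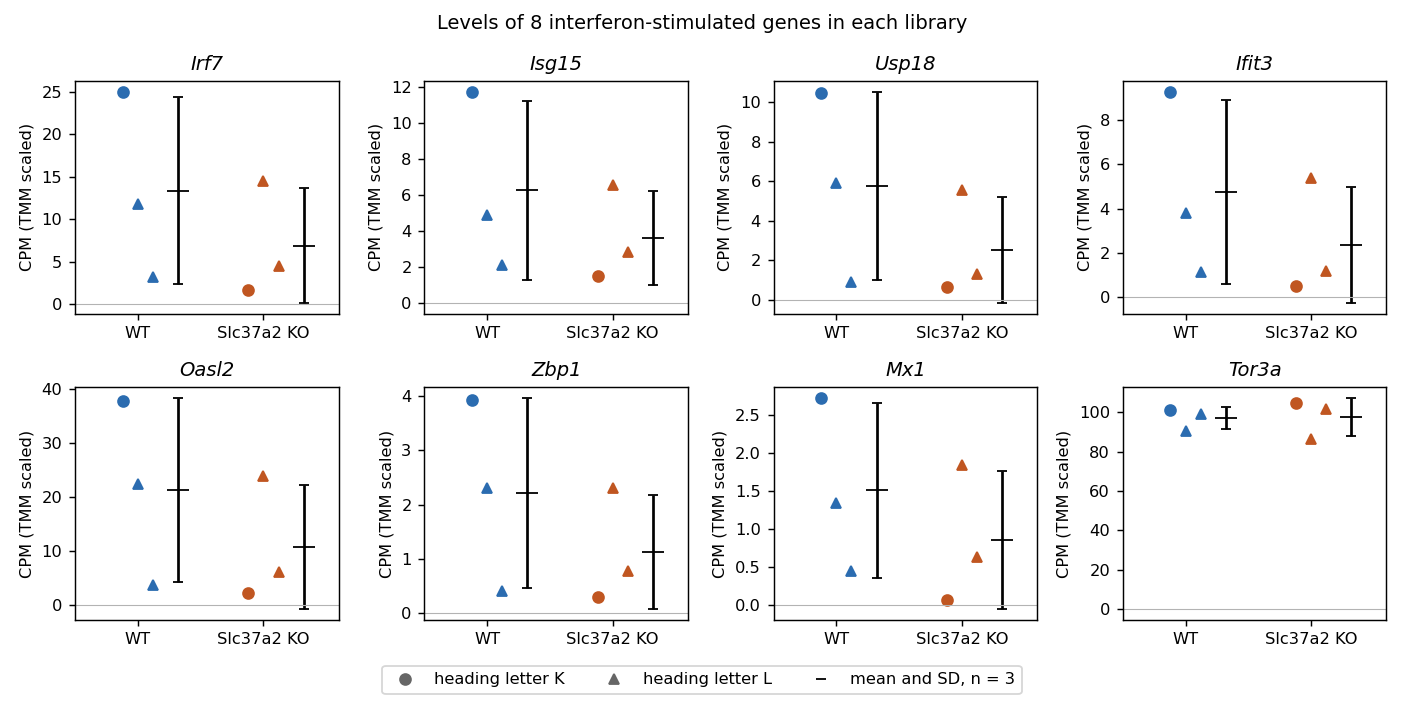
CPM, on linear axes that include 0, of 8 interferon-stimulated genes in each WT and Slc37a2 KO library. Circles are letter K libraries, triangles letter L libraries, and bars the mean and SD of 3 libraries. In Irf7, Isg15, Usp18, Ifit3, Oasl2, Zbp1 and Mx1 the circle is the highest WT and the lowest KO value, while Tor3a stays between 86.4 and 104.8 CPM.

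Per kilobase of annotated exon, Ifitm3 was the most abundant of the 41 with a mean of 205 CPM per kilobase, followed by Lgals3bp at 95.4, Bst2 at 43.0 and Trim25 at 27.9. The lowest level was that of Mx2 at 0.158 CPM per kilobase. Exon lengths were those of GENCODE M21, which may differ from the annotation the counts were made with.

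The interferons themselves were hardly counted. Of 18 type I interferon genes, 2 had a row in the count table, and the others were not analysed here. Ifnb1, interferon beta, had 1 count in WT L080 and 1 in KO L078, and Ifnz had 1 in KO L078. A count of 0 allows up to 3 counts, which is 0.0666 to 0.110 CPM depending on the library. At this depth a difference in interferon transcripts between the high and the low libraries was not detectable.

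Receptors and kinases of the pathway differed little between libraries. In this list of 13 genes, 0 were called. A negative log2 fold change was found in 9, against 56.2% of all genes, and a positive one in 4. The median was -0.05, and the library medians spanned 0.37 log2 units. Ifnar1 measured 175.5, 157.7 and 125.6 CPM in WT and 132.4, 167.3 and 136.5 CPM in KO. Ifnar2 ranged over 0.42 log2 units, Jak1 over 0.17, Tyk2 over 0.30, Jak2 over 0.66 and Stat3 over 0.10. The interferon gamma receptor genes Ifngr1 and Ifngr2 ranged over 0.74 and 0.29, Il10rb and Ifnlr1 of the lambda receptor over 0.27 and 0.91, and the feedback inhibitors Socs1 and Socs3 over 0.75 and 0.71. All 13 stayed below 1 log2 unit.

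Genes that sense nucleic acid upstream of interferon lay between in spread. Of 15 tested, 14 had a negative log2 fold change, against 56.2% of all genes, and 0 were called. The median was -0.28 and the library medians spanned 1.59 log2 units. Of a wider list of 63 interferon-stimulated genes outside the 41, 62 had a row and 58 were tested. In these 58, 0 were called and the median was -0.41. A negative log2 fold change was found in 54, against 56.2% of all genes, and a positive one in 4. WT K090 was highest and KO K089 lowest in 36, against 11.0% of all genes. The 3 high libraries were the same in 47, against 22.6% of all genes. KO was higher within letter L in 47, against 45.1%. The 5 with the largest SD were Fcgr1, Oas1g, Phf11b, Ifi209 and Ms4a4c, with ranges of 3.79, 3.81, 3.31, 3.77 and 3.29 log2 units. The ISRE core was present in 27 of the 52 genes of this list with a promoter at hand (51.9%).

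Most markers of macrophages, the cells the cultures started from, divided the libraries in the same way. WT K090, WT L080 and KO L078 were the 3 highest in 12 of 14, against 22.6% of all genes tested. The other 2, Csf1r and Cd68, had KO K089 highest. The library medians of 14 macrophage markers were 1.03, 0.62 and -0.80 in WT and -1.22, 0.91 and -0.63 in KO, and their summed level was 5525 to 9183 CPM in WT and 5851 to 8573 CPM in KO. Of the 14, 11 had a negative log2 fold change, against 56.2% of all genes, and 0 were called. WT K090 was highest and KO K089 lowest in 4 of the 14, against 11.0% of all genes. KO was higher within letter L in 12 of the 14, against 45.1%. Without Fcgr1, which is also an interferon-stimulated gene, the medians of the other 13 were 0.99, 0.52 and -0.79 in WT and -1.21, 0.81 and -0.63 in KO. Adgre1, the F4/80 antigen, measured 311.5, 271.7 and 80.02 CPM in WT and 64.4, 261.9 and 95.8 CPM in KO, while Csf1r, the M-CSF receptor, stayed between 1724 and 2096 CPM. In the 15 osteoclast markers the medians ran the other way, at -0.37, -0.11 and 0.06 in WT and 0.42, -0.30 and 0.27 in KO. All 15 had a positive log2 fold change with a median of 0.28, where 56.2% of all genes had a negative one, and 0 were called. Ctsk, the collagen-cleaving protease cathepsin K, measured 7905, 10597 and 14871 CPM in WT and 18994, 8994 and 17683 CPM in KO. The 10 proliferation genes spanned 0.99 log2 units with sums of 601.4 to 1222 CPM. In 9 of the 10, WT K090 was highest and KO K089 lowest, against 11.0% of all genes. KO was higher within letter L in 9 of the 10, against 45.1%, so these features were not confined to the interferon-stimulated genes. All 10 had a negative log2 fold change, against 56.2% of all genes, with 0 called.

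The part of these cell markers in the levels of the interferon-stimulated genes was not tested, and in bulk RNA fewer cells of a type and less RNA per cell cannot be told apart. Sums of other markers were lower, at 29.1 to 44.7 CPM for plasmacytoid dendritic cells, of which 5 of 7 markers had a row, 3.96 to 6.32 CPM for T and NK cells with 4 of 12, and 0.354 to 1.41 CPM for neutrophils with 6 of 9. Stromal and osteoblast markers, 13 of 13, held 776.5 to 2240 CPM, with KO L078 and WT L082 highest. Of the 296511 counts of this list over the 6 libraries, Col1a1 held 111149, Col1a2 90125 and Sparc 67710. The osteoblast genes Bglap, Bglap2 and Ibsp held 2, 1 and 100 counts, and Alpl and Runx2 held 940 and 2692. Of the 3 high libraries, WT K090 and KO L078 had the largest totals, 39250356 and 42522292 counts, and WT L080 had the smallest, 27552183. The part of depth was not tested.

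**Figure D5:**
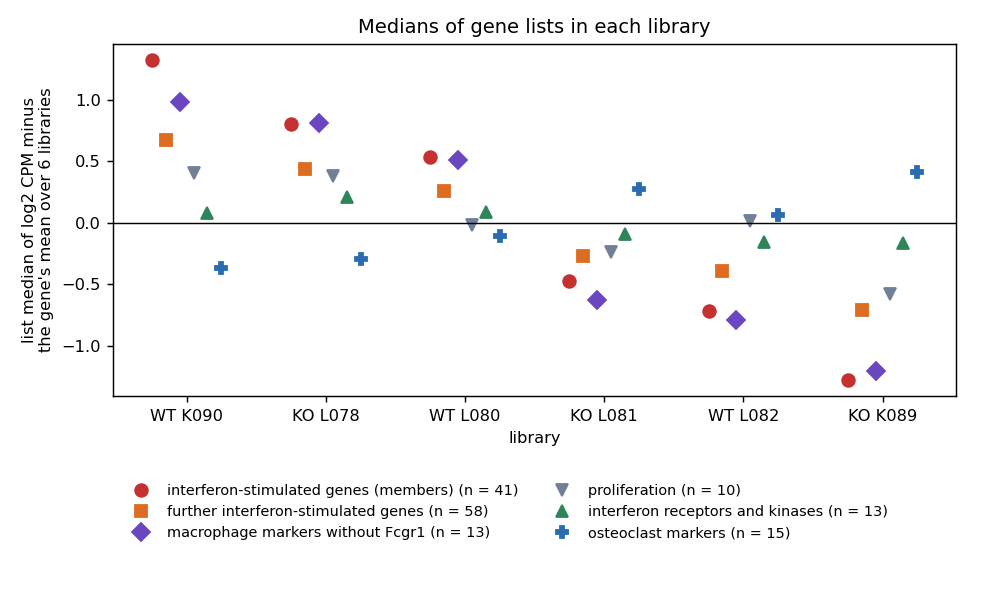
Median over each gene list of log2 CPM minus the gene's mean over the 6 libraries (vertical axis), with the libraries ordered from the highest to the lowest median of the interferon-stimulated genes. Interferon-stimulated genes fall from 1.33 to -1.28 and the 13 macrophage markers other than Fcgr1 from 0.99 to -1.21, receptors and kinases stay between -0.16 and 0.21, and osteoclast markers go from -0.37 to 0.42.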

How the data were processed

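RNAseq counts of 3 WT and 3 KO libraries were analysed. The authors deposited whole-number counts per gene for each library, not normalized. Sequencing was on a NovaSeq, and the submitters' processing notes name bcl2fastq 2.20.0.422, edgeR 3.30.3 and mm10. Neither the aligner nor the counter or annotation is given in the sources used here. Deposited columns with the authors' own fold changes, likelihood ratios and p-values, and a list of leading genes taken from the same table, were not used. Each column was assigned to its genotype by its heading.

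edgeR 4.0.16 (R 4.3.3) fitted genotype by quasi-likelihood (glmQLFit and glmQLFTest) after filterByExpr and TMM scaling, and p-values were adjusted by Benjamini-Hochberg over the 13483 genes that passed. DESeq2 1.42.0 served as an alternative. Log2 CPM had a prior count of 2. The biological coefficient of variation was 20.8%. The fit was also run on simulated counts. These were drawn for each gene separately, without variation shared across genes, so that run does not cover the shared variation described here. Members and lists were chosen with earlier results of these data known. Named in full were the 2 genes of each role with the largest SD over the libraries, Isg15, Irf7, Usp18, Stat2 and Irf9, the receptor genes, the 5 most variable further interferon-stimulated genes, and the 10 most similar and 10 most variable genes outside the 41. Other context genes were named after their values were seen. Promoters came from RefSeq and coordinates from GENCODE M21 and RefSeq, both on GRCm38. One gene of the pathway is not reported here by name.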

Additional observations from a re-analysis of the deposited data

How the results depend on the processing

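No call was made among the 41 genes under any alternative run, with lowest adjusted p-values of 0.227 to 1.00, and the same side of the threshold was kept by every one of the genes. The median log2 fold change of -0.71 was -0.68 under upper quartile scaling, -0.70 under the size factors of DESeq2, -0.67 when genes needed at least 1 CPM in 3 libraries (40 genes tested, 39 lower), -0.71 with no filter, -0.70 with DESeq2's Wald test and -0.58 with the letter as a block. Within letter L alone it was 0.21, with 6 of 41 genes lower in KO and a spread between library medians of 1.56 log2 units. That fit used 4 libraries, and 36 genes turned sign.

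Leaving out 1 library at a time moved the median between -1.52 and -0.09, the number of genes lower in KO between 33 and 41, and the spread between 2.04 and 2.65 log2 units, with 0 called each time. The median was -0.09 without WT K090, -0.29 without KO K089, -0.45 without KO L081, -1.06 without WT L082 and -1.52 without KO L078. Without KO L078, 21 of the 41 passed 1.5 in size, against 1.76% of all genes, and 11 of 41 had an unadjusted p below 0.05, against 20.1% of all genes. The prior count of 0.5 gave a spread of 2.65. No paired analysis was possible because the count columns carry no replicate number. With 3 libraries a group, intervals stayed wide in the genes that varied most.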

Other observations

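Outside the 41 genes, the 10 genes with a mean of at least 1 CPM whose levels over the libraries lay closest to the median of the interferon-stimulated genes were Ddx58, Irgm2, Igtp, Slc28a2, Slfn8, Ikzf1, Abca9, Tlr1, Ncf1 and Ifi47. Their mean absolute difference from that median over the 6 libraries was 0.0934 to 0.138 log2 units. Ddx58 encodes the RNA sensor RIG-I, Irgm2, Igtp and Ifi47 encode interferon-inducible GTPases, Ncf1 encodes a subunit of the phagocyte oxidase and Ikzf1 a transcription factor of blood cells. Ddx58 measured 66.6, 41.9 and 16.5 CPM in WT K090, L080 and L082 and 12.4, 49.3 and 23.6 CPM in KO K089, L078 and L081. Ncf1 measured 119.0, 98.1 and 36.4 CPM in WT and 28.7, 107.8 and 41.4 CPM in KO.

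Among genes with a mean of at least 1 CPM, the 10 most variable outside the 41 were En2, Slc37a2, Gm4951, Slc15a2, Siglec1, Fcrls, Ly86, Fcgr1, Slamf7 and Hpse. En2 had 0 counts in each WT library and 151, 169 and 177 in KO K089, L078 and L081. Whether these reads came from the En2 gene itself or from the gene-trap allele of the KO mice was not tested. Siglec1, a sialic acid receptor of macrophages that interferon also induces, measured 32.8, 20.7 and 3.98 CPM in WT and 2.02, 26.2 and 3.71 CPM in KO. Gm4951 measured 3.50, 1.02 and 0.160 CPM in WT and 0.0367, 1.93 and 0.106 CPM in KO. Slc15a2, a peptide transporter, did not share this division, at 2.11, 0.0353 and 1.19 CPM in WT and 2.79, 1.46 and 0.460 CPM in KO.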
